A study of Mus musculus with 6 samples.

Results

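The immunity-related GTPases (IRGs) described here are *Irgm1*, *Irgm2*, *Igtp*, *Iigp1*, *Tgtp1*, *Tgtp2*, *Ifi47* and *Gm4951*. They were taken by gene symbol from the table of 59485 genes, which held 8 rows for the 8 names. Their RNA was measured in sciatic nerves of mice at postnatal day 4 (P4), in 3 libraries labelled wild-type and 3 labelled Ht-PA-Cre; Adar1fl/fl;R26R. The human tissue plasminogen promoter of the Cre transgene is active in neural crest cells, from which Schwann cells derive, so that the mutant genotype loses *Adar*, which encodes the RNA editing enzyme ADAR1, in those cells, and R26R marks them with YFP. The study's breeding scheme gives the name wild-type to animals without Cre that carry R26R and either 2 or 1 floxed alleles, whereas the genotype labels say only wild-type. The sample titles say control, a word that the study elsewhere uses for wild-type and for heterozygous animals, the latter with Cre. No strain is given in the labels. Each library came from a separate animal, so p-values measure the spread between animals. A whole nerve also contains vessels, fibroblasts, perineurium and blood cells, so that a change in the number of cells of a type and a change in RNA per cell cannot be told apart.

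IRGs are interferon-inducible GTPases that guard cells against bacteria and protozoa living in vacuoles. The effector class (IIGP1, the TGTPs and IFI47) loads onto the vacuole membrane and breaks it open, and the regulator class (IRGM1, IRGM2 and IGTP, also called IRGM3) sits on the cell's own membranes and keeps effectors inactive there. The genes are textbook targets of both interferon beta and interferon gamma, through promoter elements known as the interferon-stimulated response element (ISRE) and the gamma-activated site (GAS).

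The deposited values are read counts on genes divided by a size factor per library, and are called normalized values below. The libraries had between 50938349 and 78250094 reads on genes, and 1 read was worth a normalized value of 0.727 to 1.27. *Adar* itself had values of 1133 to 2066 in the libraries labelled wild-type and 9311 to 11768 in those labelled mutant, a log2 fold change of 2.72 (standard error 0.20, limma adjusted p = 4.1e-05). The value was thus not lower in the libraries labelled as carrying the deletion. With 1 value per gene the floxed segment cannot be told from the rest, nor neural crest cells from other cells of the nerve. The value therefore does not test the label. For this reason libraries are named by their labels, as control-labelled or mutant-labelled. Schwann genes were present in all libraries, with the summed value of 4 markers (*Sox10*, *S100b*, *Cdh19* and *Foxd3*) at 32878 to 33873 in control-labelled and 17363 to 22706 in mutant-labelled libraries. Unless another test is named, tests used log2(normalized value + 1) in limma with Benjamini-Hochberg adjustment over 25802 tested genes, and a gene was called higher or lower at an unadjusted p at or under 0.05 with a change of at least 2-fold.

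RefSeq promoter windows of GRCm38.p6 (mm10), 250 bases before to 50 bases after the gene start, were at hand for 6 of the 8 genes, all on chromosome 11. The 110 bases before the start of the 5 windows with a motif are shown because these genes are known interferon targets. They read 5′ to 3′ in the direction of transcription, with matches to the ISRE (GAAANNGAAA, searched on both strands) and to the GAS (TTCNNNGAA, the same on both strands) in capitals. The GAS, where there is one, is the first block of capitals.
*Irgm1*, chr11:48871421-48871530, minus strand: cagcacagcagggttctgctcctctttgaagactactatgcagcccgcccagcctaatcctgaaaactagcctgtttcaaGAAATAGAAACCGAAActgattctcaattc
*Irgm2*, chr11:58214867-58214976, plus strand: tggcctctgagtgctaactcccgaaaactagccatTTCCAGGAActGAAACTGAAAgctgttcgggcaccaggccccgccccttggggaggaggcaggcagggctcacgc
*Igtp*, chr11:58199446-58199555, plus strand: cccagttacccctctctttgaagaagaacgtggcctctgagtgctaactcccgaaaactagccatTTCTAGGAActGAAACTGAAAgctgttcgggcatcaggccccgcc
*Tgtp1*, chr11:48992247-48992356, minus strand: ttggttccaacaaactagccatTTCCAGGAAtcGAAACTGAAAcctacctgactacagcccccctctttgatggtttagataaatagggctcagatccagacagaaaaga
*Tgtp2*, chr11:49064213-49064322, minus strand: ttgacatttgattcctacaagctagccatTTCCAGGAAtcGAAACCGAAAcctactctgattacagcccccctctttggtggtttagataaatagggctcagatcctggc

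An ISRE match was present in 5 of the 6 windows, against 3.44% of all 32851 promoter windows of the same length, and a GAS match in 4 of the 6, against 8.30%. In *Irgm2*, *Igtp*, *Tgtp1* and *Tgtp2* the GAS was followed after 2 bases by the ISRE on the same strand. This arrangement (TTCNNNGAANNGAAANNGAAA), which was looked up after the windows had been seen, occurred in 5 of the 32851 windows (0.0152%). They were those 4 and the window of *Gm12185*, an IRG-like gene that the table lists in a single row with *Tgtp1*. *Irgm1* held 2 ISRE matches that overlap each other, and no GAS. The window of *Ifi47* held no match to either, which says only that these letters are not in that window. The genes are paralogs and their windows are alike in sequence, so the matches are not independent of each other, and a match is not evidence of a bound site.

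**Figure D1:**
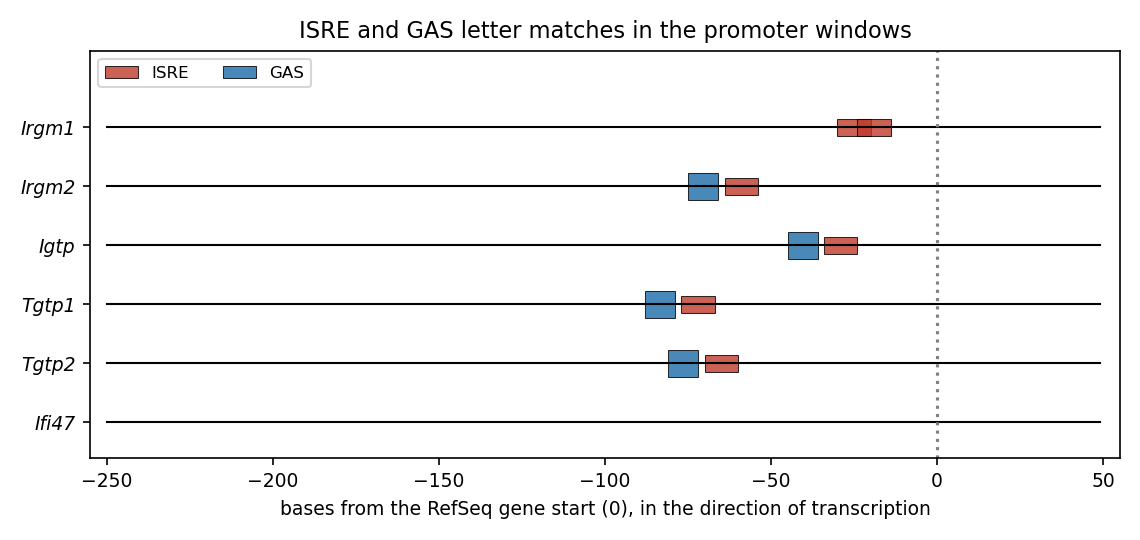
Positions of ISRE (red) and GAS (blue) letter matches in the promoter windows of 6 immunity-related GTPases, drawn in bases from the RefSeq gene start in the direction of transcription. In 4 genes a GAS lies 2 bases before an ISRE, *Irgm1* has 2 overlapping ISRE matches, and *Ifi47* has none.

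All 3 regulator genes had higher values in every mutant-labelled than in every control-labelled library. *Irgm1* (GSMG0006599, chr11:48861968-48871686, minus strand), which restrains effector GTPases on lysosomes and takes part in autophagy, had normalized values of 793, 5188 and 466 in control-labelled replicates 1 to 3 and of 35994, 29068 and 37024 in mutant-labelled replicates 1 to 3. The control-labelled replicate 2 stood far above the other two controls, and still 5.60-fold below the lowest mutant-labelled value. The log2 fold change was 4.77 (standard error 0.74, 95% interval 3.08 to 6.45, adjusted p = 0.00154). *Irgm2* (GSMG0005235, chr11:58214974-58222782, plus strand), a regulator found at the Golgi and on vacuoles, had values of 856, 3525 and 355 in the controls and of 29000, 24004 and 24476 in the mutants. Its groups were separated by 6.81-fold between the nearest values, and the log2 fold change was 4.65 (standard error 0.67, 95% interval 3.11 to 6.19, adjusted p = 0.0011). *Igtp* (GSMG0005234, chr11:58199555-58207591, plus strand), the regulator known from the endoplasmic reticulum and lipid droplets, had values of 579, 5279 and 284 in the controls and of 26687, 20404 and 23983 in the mutants. It was the member with the narrowest gap, 3.86-fold between the highest control-labelled and the lowest mutant-labelled library, and had a log2 fold change of 4.62 (standard error 0.88, 95% interval 2.61 to 6.64, adjusted p = 0.00444).

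The effector genes changed as well. *Iigp1* (GSMG0018452, chr18:60373616-60392627, plus strand), the effector IRGA6, had values of 426, 4114 and 73.5 in control-labelled and of 47299, 40296 and 41690 in mutant-labelled libraries. The mutant-labelled values lay close together, with a coefficient of variation of 8.60%, the lowest of the 8 genes, while the control-labelled values were spread widely. The log2 fold change was 6.40 (standard error 1.16, 95% interval 3.75 to 9.06, adjusted p = 0.00346). *Ifi47* (GSMG0005108, chr11:49050733-49135387, plus strand), the effector IRGD, had values of 195, 1683 and 120 in the controls and of 15763, 11044 and 14808 in the mutants. No value overlapped between the groups, and the log2 fold change was 5.32 (standard error 0.82, 95% interval 3.45 to 7.19, adjusted p = 0.0015). *Gm4951* (GSMG0018450, chr18:60212076-60247820, plus strand), which RefSeq also lists as *Ifgga2*, next in name to *Iigp1* (*Ifgga1*), had values of 46.6, 410 and 22.8 in the controls and of 9059, 7249 and 7185 in the mutants. It had the widest gap, 17.5-fold between the nearest values, and its log2 fold change was 6.65 (standard error 0.87, 95% interval 4.67 to 8.63, adjusted p = 0.000639). Over principal transcripts of GENCODE vM21, the coding sequences of *Iigp1* and *Gm4951* were 86.1% identical, and no stretch of 130 bases (the read length) of either transcript occurred in that of another gene.

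*Tgtp1* and *Tgtp2*, which code for the effectors called IRGB6, are a near-identical pair. Their coding sequences of 1245 bases differed at 4 positions (99.7% identity), whereas the 3 regulators were 62.1 to 66.5% identical to each other and the remaining pairs, apart from *Iigp1* and *Gm4951*, 49.3 to 58.1%. Of all stretches of 130 bases, 77.5% in the *Tgtp1* transcript and 74.6% in the *Tgtp2* transcript also occurred in a transcript of the other gene or of *Gm12185*. How reads that match more than 1 of these genes were assigned is not given in the sources used here, so the split between the pair is uncertain. *Tgtp1* (GSMG0043114, listed with *Gm12185*, chr11:48904656-48992248, minus strand) had values of 74.4, 779 and 16.5 in control-labelled and of 14778, 12143 and 15948 in mutant-labelled libraries. The nearest values of the groups were 15.6-fold apart, and the log2 fold change was 7.14 (standard error 1.11, 95% interval 4.60 to 9.67, adjusted p = 0.00158). *Tgtp2* (GSMG0043115, chr11:49057196-49064212, minus strand) had values of 65.5, 2764 and 0 in the controls and of 32781, 26948 and 33286 in the mutants. The 0 is a count of 0 reads, which allows a normalized value of up to 3.80 (3 reads, counting error only), while the control-labelled replicate 2 held 2925 reads of the same gene. Its limma log2 fold change was 9.08 and had the widest 95% interval of the 8 genes (standard error 2.28, 95% interval 3.86 to 14.31, adjusted p = 0.0155). DESeq2 on the recovered reads gave *Tgtp2* a log2 fold change of 5.04 with an adjusted p of 0.0697, and edgeR's quasi-likelihood test one of 5.05 with an adjusted p of 0.0458. Both count models placed *Tgtp1* (5.62 in DESeq2 and 5.61 in edgeR) above *Tgtp2*, whereas limma placed it below. With both genes summed, the values were 140, 3542 and 16.5 against 47559, 39091 and 49234, and the log2 fold change was 7.77 (standard error 1.54, 95% interval 4.25 to 11.30, adjusted p = 0.00534). The ratio of *Tgtp2* to *Tgtp1* was 2.22, 2.22 and 2.09 in the mutant-labelled libraries and 0.881, 3.55 and 0 in the control-labelled ones (exact two-sided permutation test, p = 0.6, in a design whose smallest possible p is 0.1).

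The 8 genes lie in 3 clusters of the mm10 assembly. *Irgm1*, *Tgtp1*, *Tgtp2* and *Ifi47* share a stretch of chromosome 11 (chr11:48861968-49135387), *Igtp* and *Irgm2* are neighbors further along the same chromosome (chr11:58199555-58222782), and *Gm4951* and *Iigp1* lie on chromosome 18 (chr18:60212076-60392627). Some of them overlap other genes. *Tgtp2* lies within the span of *Ifi47* on the opposite strand. The cDNA was oriented, but whether the counting used the strand is not given in the sources used here. *Ifi47* (11044 to 15763) lay below *Tgtp2* (26948 to 33286) in the mutant-labelled libraries, so its row did not hold all *Tgtp2* reads. In control-labelled replicate 3 *Tgtp2* had 0 reads and *Ifi47* 95. Whether some reads were counted for both was not tested. The row of *Tgtp1* contains *9930111J21Rik1* on the same strand. An unnamed gene (GSMG0005236) inside *Igtp*, also on the same strand, had values of 22.2, 366 and 15.2 in control-labelled and of 485, 328 and 501 in mutant-labelled libraries. There the control-labelled replicate 2 reached the level of the mutant-labelled libraries, unlike in *Igtp* itself. *Irgm2* and *Igtp* shared 1.44% and 2.59% of their stretches of 130 bases, and GENCODE holds an *Irgm2* transcript that starts within *Igtp*.

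Each of the 8 genes passed the filter on low values and each was called higher in the mutant-labelled libraries, where 13.9% of all tested genes were called higher. The same 8 were called at an adjusted p at or under 0.05, as were 11.5% of all tested genes. In 8 of 8, the 3 mutant-labelled values lay above the 3 control-labelled values, as in 25.9% of all tested genes. The median log2 fold change of the 8 was 5.86, against 0.03 over all tested genes. The ratio of group means ran from 11.6 (*Igtp*) to 49.3 (*Tgtp1*). edgeR and DESeq2, which model mean counts in place of mean log values, gave lower log2 fold changes, of 3.54 to 5.61 and 3.53 to 5.62 with medians of 4.60 and 4.59. The summed value of the 8 genes was 3036, 23742 and 1338 in control-labelled and 211359, 171155 and 198400 in mutant-labelled libraries. They took 0.00207 to 0.0366% of the reads on genes in control-labelled and 0.300 to 0.371% in mutant-labelled libraries.

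**Figure D2:**
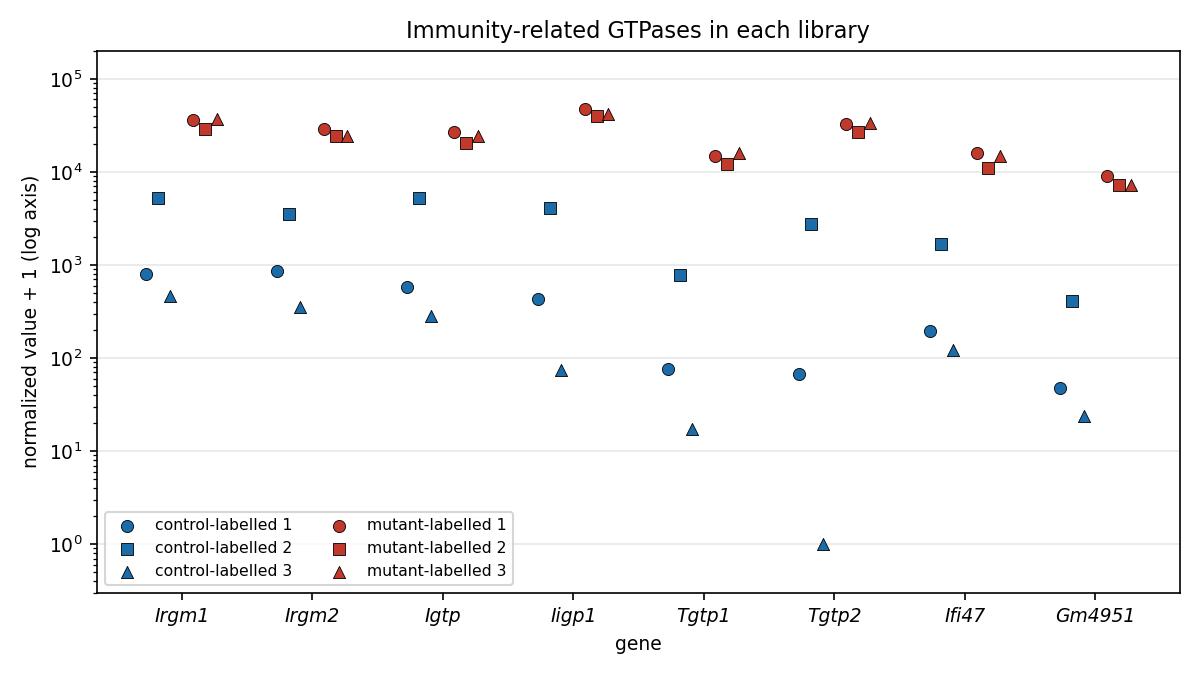
Normalized value + 1 (log axis) of each immunity-related GTPase in the 6 libraries, with blue points for control-labelled and red points for mutant-labelled libraries and the marker shape for the replicate number. Every red point lies above every blue point of the same gene, and control-labelled replicate 2 (blue squares) lies above the other blue points in all 8 genes.

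The control-labelled libraries were uneven, and in the same order for every member. Replicate 2 was above replicate 1, which was above replicate 3, in 8 of 8 genes, an order found in 13.2% of all tested genes. Replicate 2 exceeded the mean of the other two controls by 5.82-fold in *Irgm2*, 8.24-fold in *Irgm1*, 10.7-fold in *Ifi47*, 11.8-fold in *Gm4951*, 12.2-fold in *Igtp*, 16.5-fold in *Iigp1*, 17.1-fold in *Tgtp1* and 84.4-fold in *Tgtp2*. On the log2(value + 1) scale its deviation from the mean of the other two was 2.67 to 8.41 (median 3.65). Among all tested genes the 5th to 95th percentile of that deviation was -1.61 to 1.52, and 374 genes (1.45%) reached the lowest of the members. A group of 3 libraries is too small for an outlier test, and none was run. The mutant-labelled libraries were more alike, with coefficients of variation of 8.60 to 17.99%. Replicate 2 of the mutants had the lowest value in 7 of the 8 genes, for *Ifi47* at 11044 against 15763 and 14808 in replicates 1 and 3.

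The size of each change depended on which control was taken as the base. Against control-labelled replicate 2 alone, the mutant-labelled mean was 4.49-fold (*Igtp*) to 19.1-fold (*Gm4951*) higher. Against the mean of the other 2 controls it was 42.7-fold (*Irgm2*) to 946-fold (*Tgtp2*) higher, and 314-fold for *Tgtp1*. The base for *Tgtp2* was 59 and 0 reads, and its split from *Tgtp1* is uncertain. Its 946-fold, and the 84.4-fold excess of replicate 2, are thus imprecise. Without replicate 2 of the controls, the log2 fold changes rose to between 5.54 (*Irgm2*) and 11.89 (*Tgtp2*), with a median of 7.16 and adjusted p-values of at most 0.0011, and the standard error of *Irgm1* fell from 0.74 to 0.23. Without replicate 3 of the controls the median was 4.80. All 8 genes were called higher whichever library was left out.

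**Figure D3:**
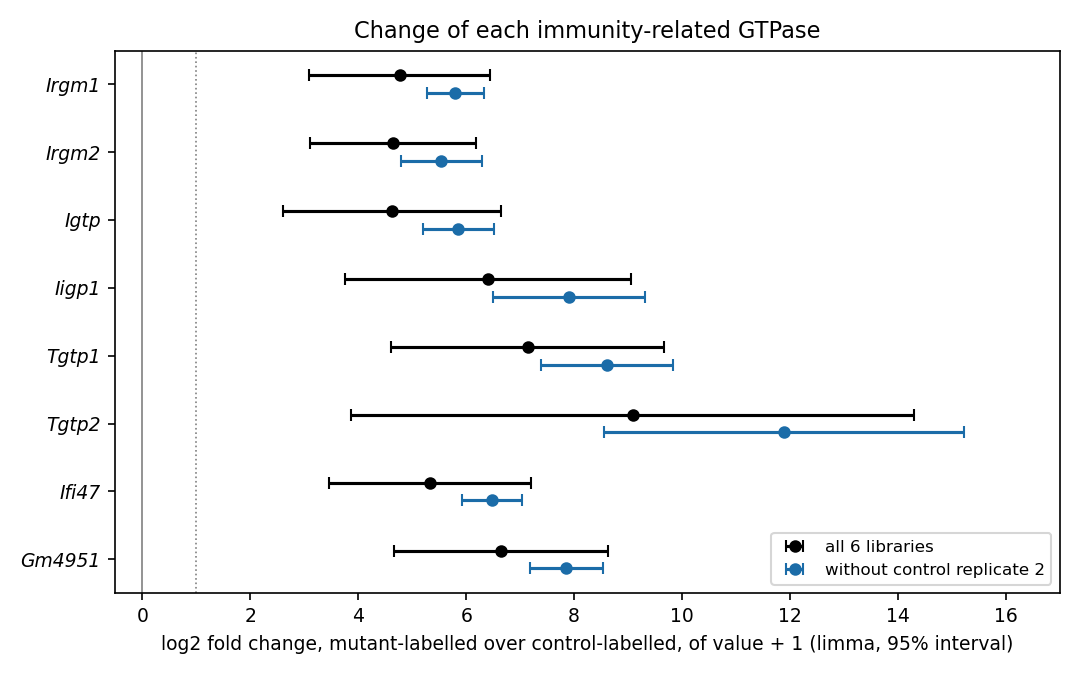
Log2 fold change of value + 1 (mutant-labelled over control-labelled, limma) with its 95% interval, for all 6 libraries (black) and without control replicate 2 (blue). The solid line marks no change and the dotted line a 2-fold change, and every interval lies above both, with *Tgtp2* having the widest.

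The make-up of the family also differed between the libraries. The 3 regulators *Irgm1*, *Irgm2* and *Igtp* accounted for 73.4, 58.9 and 82.6% of the summed values of the 8 genes in control-labelled replicates 1 to 3, and for 43.4, 42.9 and 43.1% in mutant-labelled replicates 1 to 3. The groups did not overlap, and control-labelled replicate 2 lay nearest to the mutants. The effectors *Iigp1*, *Tgtp1*, *Tgtp2* and *Ifi47*, summed, were 0.342, 0.667 and 0.190 times the sum of the regulators in the controls and 1.21, 1.23 and 1.24 times in the mutants (exact two-sided permutation test, p = 0.1, the smallest that 3 against 3 can give). The share of the effector *Ifi47* did not follow its class, with overlapping ranges of 6.44 to 9.0% over control-labelled and 6.45 to 7.46% over mutant-labelled libraries. This ratio of sums is taken within a library and does not depend on its size factor. The values are not per length of counted sequence, so the shares compare libraries and not the abundance of 1 gene with another. The fitted log2 fold changes of the regulators, 4.62 to 4.77, lay below those of the 4 effectors and *Gm4951*, 5.32 to 9.08, but the 95% intervals of the classes overlapped.

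**Figure D4:**
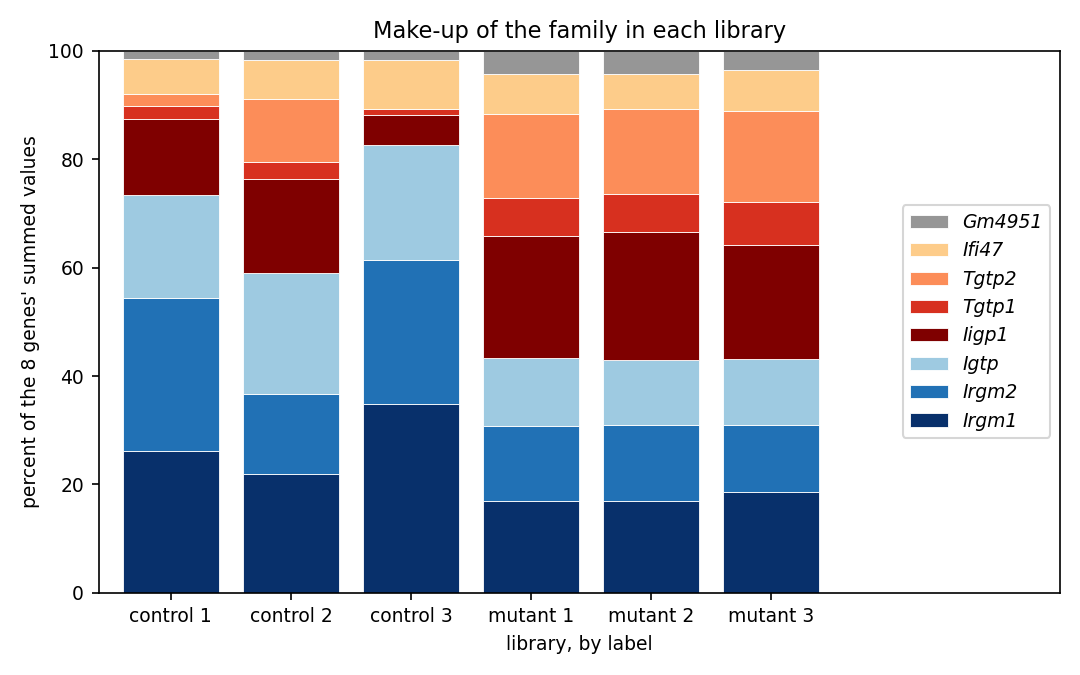
Percent of the summed normalized values of the 8 genes in each library, stacked by gene, with regulators in blue, effectors in red to yellow and *Gm4951* in grey. The blue share is 58.9 to 82.6% in the control-labelled and 42.9 to 43.4% in the mutant-labelled libraries.

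Less known relatives of the family were tested beside it. A list of 7 other IRG or IRG-like genes was used, which does not hold *Gm4841* of the chromosome 18 cluster, whose values are given with the neighboring genes. Of the 7, 6 passed the filter and 5 were called higher. *F830016B08Rik*, a neighbor of *Iigp1*, had the largest limma change of the list, from 13.3, 41.6 and 0 to 970, 793 and 1218 (log2 fold change 6.85, adjusted p = 0.00235), and *Gm12250*, also named IRGB10, went from 55.5, 683 and 15.2 to 9601, 7058 and 8579 (6.61, adjusted p = 0.0023). With a library left out, the log2 fold change of *F830016B08Rik* ranged from 5.31 to 8.02 and that of *Gm12250* from 5.41 to 8.11. *9930111J21Rik2* had the smallest change among those called, 3.33. *Irgq*, a diverged relative, was not called, with values of 180, 200 and 194 in control-labelled and of 132, 96.5 and 109 in mutant-labelled libraries (adjusted p = 0.0404, with a change of less than 2-fold). *Irgc1*, the relative known from testis, had at most 2 reads in any library and was not tested.

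The guanylate-binding proteins (GBPs), larger interferon-inducible GTPases that act on the same vacuoles, were all called higher, 11 of 11. Their limma log2 fold changes ran from 3.57 (*Gbp8*) to 7.51 (*Gbp10*), with a median of 5.36. With a library left out, *Gbp8* ranged from 2.81 to 4.31 and *Gbp10* from 6.09 to 9.52. *Gbp2b* (0, 14.2 and 0 against 72.7, 491 and 31.7) passed the filter only through the mutant-labelled libraries. Its limma adjusted p reached 0.0536 with a library left out. Control-labelled replicate 2 exceeded the mean of the other 2 controls by more than 1 on the log2 scale in 11 of 11 GBPs (median 2.93), as it did in 8 of 8 IRGs. Of all tested genes, 8.71% did so. Likeness was measured by the root mean square difference between centred log2 profiles over the 6 libraries. Among genes with a symbol other than the members, the 5 most like the mean of the 8 members were *Gbp6* (0.19), *Gm12250* (0.28), *Cd274* (0.39), *Gbp4* (0.46) and *Pydc4* (0.52). *Cd274* codes for the checkpoint ligand PD-L1. Among the same genes the profile of *Tgtp2* had no neighbor as close, the nearest being *Oas3* (1.38), which senses double-stranded RNA, *Gbp10* (1.70) and *H2-T24* (1.85).

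**Figure D5:**
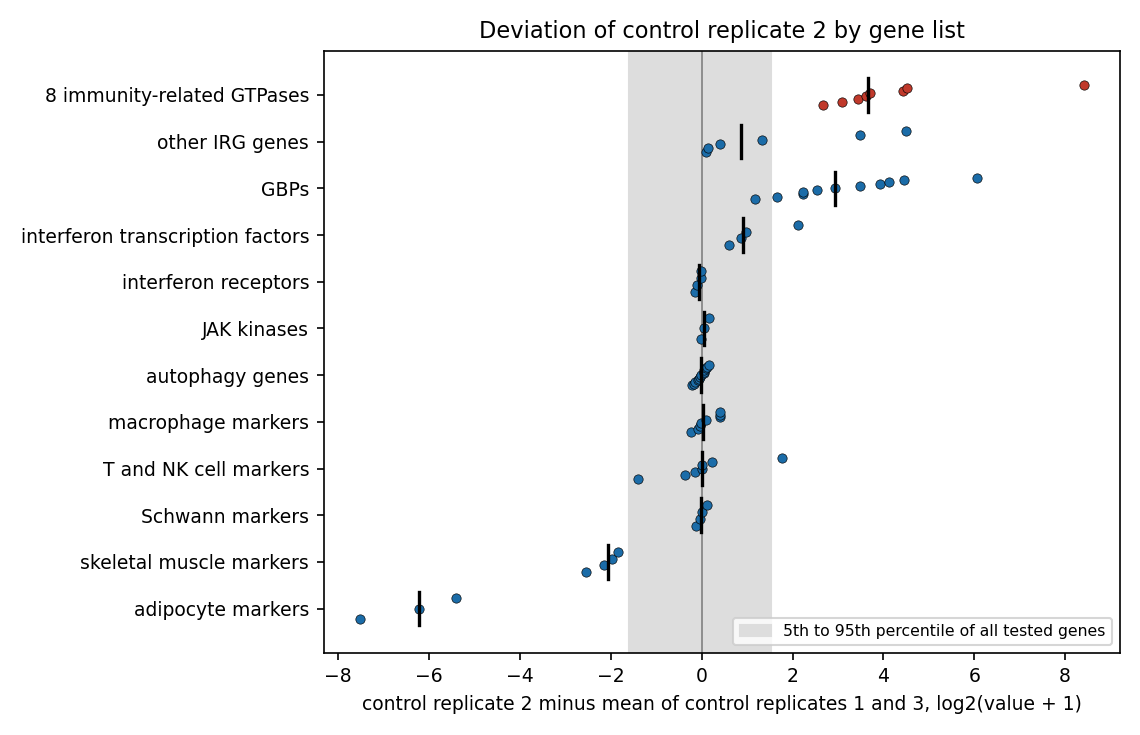
Deviation of control-labelled replicate 2 from the mean of control-labelled replicates 1 and 3 in log2(value + 1), for the tested genes of each list, with the list median as a black bar and the 5th to 95th percentile of all tested genes in grey. The 8 immunity-related GTPases (red, 2.67 to 8.41) and most GBPs lie above the grey band, while interferon receptors, JAK kinases, autophagy genes and Schwann markers lie within it.

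Upstream in the pathway, the ligands rose and the receptors did not pass the threshold. *Ifnb1*, interferon beta, had 0 reads in each control-labelled library and values of 466, 408 and 507 in the mutant-labelled ones, at least 139-fold higher against a floor of 3 reads per library (adjusted p = 1.11e-05). *Ifng*, interferon gamma, had 0 reads in each control and 10, 30 and 12 reads in the mutants, at least 4.82-fold higher (adjusted p = 0.013). Without mutant-labelled replicate 2, which held the 30 reads, that limit was 2.88-fold and *Ifng* did not pass the filter on low values. Both ligands passed that filter only through the mutant-labelled libraries. Their calls and p-values are therefore not independent of the filter. Control-labelled replicate 2 thus held no read of either ligand, which allows a normalized value of up to 2.83 for each. Of the 4 receptor genes none was called (log2 fold changes from -0.38 for *Ifnar1* to 0.75 for *Ifnar2*). Nor was any of the 3 receptor-bound kinases, from -0.57 (*Tyk2*) to 0.67 (*Jak1*). *Ifnar2*, *Jak1*, *Ifngr2*, *Jak2* and *Tyk2* had adjusted p-values under 0.05 with changes of less than 2-fold.

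Among 4 transcription factors of the interferon response, 3 were called higher. *Stat2*, which acts with *Irf9* at ISRE elements, had values of 2110, 3390 and 1646 in control-labelled and of 22841, 15374 and 16343 in mutant-labelled libraries (log2 fold change 2.98, adjusted p = 7.67e-05). *Irf9* changed by 2.94 and *Irf1* by 2.75 on the log2 scale. *Irf8*, a factor of myeloid and lymphoid cells, had a log2 fold change of 0.82 (adjusted p = 0.0299, less than 2-fold) and was not called. Without control-labelled replicate 2 it was called as well (1.02, adjusted p = 0.0195), which made 4 of 4. Control-labelled replicate 2 was the highest control for all 4, with a median deviation of 0.92. The largest deviation was in *Irf1*, at 582, 2639 and 632 in the controls.

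Downstream partners of the IRGs were examined in the same fit. Of 13 autophagy genes, whose conjugation machinery places IRGs on vacuoles, none was called in either direction, with log2 fold changes from -0.78 (*Map1lc3b*, LC3B) to 0.85 (*Sqstm1*, the ubiquitin receptor p62) and a median of -0.02. In 6 of the 13 (*Map1lc3b*, *Sqstm1*, *Gabarap*, *Gabarapl2*, *Ulk1* and *Atg3*) the adjusted p was under 0.05 with a change of less than 2-fold. *Sqstm1* had values of 6795, 7480 and 7290 in control-labelled and of 13127, 11439 and 14565 in mutant-labelled libraries, and was called under rescaling of the libraries to the same total. Of 2 ubiquitin ligases known from IRG-coated vacuoles, *Trim21* rose from 210, 331 and 175 to 3481, 2481 and 3095 (log2 fold change 3.70, adjusted p = 2.05e-05), while *Traf6* was not called (0.04).

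Markers of other cells moved with the groups too. For comparison, 3580 of all 25802 tested genes were called higher and 2671 lower. Of 8 T and NK cell markers 7 were tested and 5 called higher (*Ncr1*, *Nkg7*, *Cd8a*, *Klrb1c* and *Cd4*), 4 of them at an adjusted p at or under 0.05, with a summed value of 112 to 217 in control-labelled and 417 to 570 in mutant-labelled libraries. The groups overlapped for *Cd4* (153, 92.6 and 69.7 against 276, 151 and 216, adjusted p = 0.0542), whose log2 fold change fell to as low as 0.80 with a library left out. *Ncr1*, *Cd8a* and *Cd3d* were at 0 reads in all controls. *Ncr1*, *Cd8a* and *Nkg7* passed the filter on low values only through the mutant-labelled libraries, so their calls are not independent of it. Of 8 macrophage markers 2 were called higher (*Ptprc* and *Aif1*) and 3 lower (*Csf1r*, *Cx3cr1* and *Mrc1*), with a sum of 11211 to 14439 in controls and 5787 to 7556 in mutants. All 4 skeletal muscle markers were higher (sum 3454 to 18135 against 23081 to 172412), all 3 erythroid markers lower (39540 to 55605 against 3796 to 11701), and 1 of 4 Schwann markers lower (*S100b*). The muscle sums of mutant-labelled replicates 1 to 3 were 51709, 23081 and 172412. Without control-labelled replicate 2 the limma adjusted p was 0.127 (*Acta1*), 0.103 (*Ckm*), 0.0719 (*Mylpf*) and 0.0382 (*Tnnt3*). Of 4 fibroblast markers, *Col1a1*, the gene of a collagen I chain, was called lower (log2 fold change -1.10, adjusted p = 0.00311). The sum of the 4 was 1175999 to 1336760 in controls and 438050 to 712267 in mutants, and was almost only *Col1a1*. The other 3 were not called, with log2 fold changes of 0.92 (*Dpt*), 0.16 (*Pdgfra*) and -0.43 (*Lum*). None of 5 endothelial, 3 perineurial or 3 adipocyte markers was called, although the adipocyte sum was 6276 in mutant-labelled replicate 2 and 13.8 and 23.3 in the other mutants. Their part in the values of the IRGs was not tested.

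The same lists were read in control-labelled replicate 2, where the IRGs were high among the controls. Its T and NK cell sum of 139 and its macrophage sum of 12151 lay between those of the other two controls. Single markers of these lists differed from the sums. *Cd3e*, of the T cell receptor complex, was at 8.88, 25.5 and 5.07 in control-labelled replicates 1 to 3, a deviation of 1.78 that lay above the 95th percentile of all tested genes. The macrophage-list genes *Ptprc*, *Aif1*, *Adgre1* and *Itgam* were also highest in replicate 2, for *Ptprc* at 332, 377 and 245. In contrast, *Klrb1c*, *Cd3g*, *Csf1r* and *Cx3cr1* were lowest in replicate 2, for *Klrb1c* at 41.1, 11.3 and 24.1. Its skeletal muscle sum of 3454 and its adipocyte sum of 7.56 were the lowest of the controls, which otherwise ranged from 14951 to 18135 and from 509 to 1496. Its erythroid sum of 39540 was also the lowest, against 49917 and 55605. Its perineurial sum of 9612 and its fibroblast sum of 1336760 were the highest, against 7697 and 8915 and against 1175999 and 1266878, and all 3 perineurial genes had the order of controls seen in the IRGs. The fibroblast sum was almost only *Col1a1*. *Dpt* (4878, 2506 and 1621), *Pdgfra* (984, 659 and 632) and *Lum* (14330, 13178 and 10714) were highest in replicate 1. Its Schwann sum of 33475 and its endothelial sum of 14316 lay between those of the other two. The part of these differences in the IRG values was not tested.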

How the data were processed

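The authors sequenced poly-A RNA of P4 sciatic nerves (3 control-labelled, 3 mutant-labelled libraries), mapped it with STAR 2.4.0 to mm10 and used DESeq2 to normalize the counts over the constitutive regions of FAST DB genes. The deposited table gives 1 normalized signal for each gene and library, with no expression filter applied. It was a whole multiple of the value of 1 read for 100% of values in each library (tolerance 0.01 reads), which gave back the counts used for edgeR and DESeq2. In mutant replicate 3 that value, 0.989, is so near to 1 that the count tests serve only as alternatives. Coordinates are those of the table.

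Signal + 1 was log2-transformed and fitted with limma (lmFit, eBayes with trend) as mutant minus control over the 25802 genes with a mean of at least 10 in either genotype. Calls needed a 2-fold change and an unadjusted p of 0.05 or less, the limits of the study's methods. The 8 IRGs are named with all their values. Of other lists the largest and smallest changes are named, up to 4 a list, plus genes that a result turns on. The members and lists were chosen with earlier results of these data known. Control and mutant animals with the same number were not treated as pairs, since no label pairs them and their deviations did not correlate (r from -0.06 to 0.01 over genes).

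Promoter windows and gene synonyms came from RefSeq (GRCm38.p6) and transcripts from GENCODE vM21. Protein features were not analysed here. A few genes of the lists are left out and not reported here. Reads lack molecular identifiers, so limits from counts cover counting error only. Tools were R 4.3.3, limma 3.58.1, edgeR 4.0.16, DESeq2 1.42.0, Python 3.11.15, scipy 1.17.1, matplotlib 3.10.9 and Biopython 1.88.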

Additional observations from a re-analysis of the deposited data

How the results depend on the processing

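All 8 IRGs were called higher under each of 12 other settings and with each library left out. With *Tgtp1* and *Tgtp2* summed, 7 of 7 were. The adjusted p of *Tgtp2* exceeded 0.05 in limma without a trend (0.0706), in DESeq2 (0.0697) and without mutant replicate 1 (0.052) or 3 (0.0572). The members' median log2 fold change of 5.86 ranged from 4.80 to 7.16 with a library left out. Of the 2 interferon ligands called higher, 1 was left at a minimum mean of 50, where *Ifng* was not tested, and 1 to 2 with a library left out (1 without mutant replicate 2). The count of autophagy genes called higher went from 0 to 1 (*Sqstm1*) with libraries rescaled to the same total. That rescaling moved the median log2 fold change of all genes to 0.20 and the higher share of all calls from 57.3% to 66.4%, and the 75th percentile moved that median to 0.13. A replicate block gave 8 called members with a highest adjusted p of 0.00967 and changed none of the counts of other IRGs, GBPs, ligands, receptors, kinases, transcription factors, autophagy genes and ubiquitin ligases. Same-numbered animals correlated at -0.06, -0.06 and 0.01. Low control values, down to 0 reads of *Tgtp2*, limit the precision of the folds.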

Other observations

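Genes within 150 kb of the IRG clusters were read for comparison, beside the 13.9% of all tested genes that were called higher. Around *Irgm1*, *Tgtp1*, *Tgtp2* and *Ifi47*, 12 other genes were tested and 5 called higher. They were 3 IRG relatives (*Gm5431*, *9930111J21Rik1* and *9930111J21Rik2*) and 2 genes without a symbol (GSMG0006602 and GSMG0006605), while none of the 6 other genes with a symbol was called. *9930111J21Rik2* and GSMG0006605 overlap *Ifi47* on the opposite strand, and *9930111J21Rik1* lies within the row of *Tgtp1*. Whether they hold reads of those members was not tested. Around *Igtp* and *Irgm2*, 2 of 11 were called, the relative *Gm12250* and the unnamed gene inside *Igtp*, and none of the 7 others with a symbol. On chromosome 18, 3 of 4 neighbors with a symbol were called, among them the relative *F830016B08Rik*. *Gm4841*, which RefSeq also lists as *Ifgga3*, had values of 0, 7.56 and 0 in control-labelled and of 464, 213 and 379 in mutant-labelled libraries (log2 fold change 7.36, limma adjusted p = 0.000421). It passed the filter on low values only through the mutant-labelled libraries. *Smim3* had values of 245, 214 and 210 in control-labelled and of 3201, 4743 and 5334 in mutant-labelled libraries (log2 fold change 4.27, adjusted p = 4.28e-06), with no excess in control-labelled replicate 2. These neighbors are named because the counts are small, after their values were seen.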
